A study of Mus musculus with 15 samples.

Results

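The mitochondrial ribosomal proteins are the nuclear-encoded proteins of the mitoribosome, and their transcripts were followed here across 5 treatments of a mouse melanoma line. Members were the protein-coding genes in the count table whose GENCODE M21 symbol is Mrpl or Mrps, then a number and at most a letter a to c, a rule on names that used no measured value. The rule gave 78 of the 46078 gene identifiers in the table, 49 Mrpl and 29 Mrps genes. Of the 78, 77 were among the 15152 genes that passed the filter on low counts and were tested. By the composition of the mammalian mitoribosome, 26 members belong to the small subunit and 51 to the large subunit, while Mrps36 is now placed in the 2-oxoglutarate dehydrogenase complex.

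The mitoribosome works in the mitochondrial matrix, where it translates the few mRNAs of mitochondrial DNA, all of them for subunits of the respiratory chain and ATP synthase. Its rRNAs, mt-Rnr1 in the small and mt-Rnr2 in the large subunit, come from mitochondrial DNA, whereas every protein is encoded in the nucleus, made in the cytosol and imported. Some of these proteins descend from bacterial ribosomal proteins, and the others are found in mitochondria and not in bacteria.

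B16-F10 cells, a pigmented mouse melanoma line, received 2 µM GSK126, an inhibitor of the methyltransferase EZH2, or 2 µM DZNep, an inhibitor of S-adenosylhomocysteine hydrolase, or the vehicle DMSO. In a parallel arm they received an siRNA against Ezh2 (siEzh2) or a scrambled siRNA (scr). Each of the 5 groups had 3 libraries, all from the same line, which limits every comparison to that line. How long cells were treated, which siRNA sequences were used and how libraries were made is not stated in the sources used here, nor whether replicates were separate cultures. The p-values therefore speak of the spread between these 15 libraries, and that spread may be technical.

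Libraries held between 33299524 and 64545747 counts, and 1 count was worth 0.0154 to 0.0306 CPM, counts per 1000000 of TMM-scaled library size. The spread between replicates was small, with a biological coefficient of variation of 6.4%. Ezh2, the targeted gene, was at 37.6, 39.9 and 41.3 CPM with siEzh2, against 215, 227 and 215 CPM in scr, a 5.53-fold lower level (adjusted p = 1.22e-17). It was at 208, 212 and 221 CPM with GSK126 and 160.3, 156 and 150.2 CPM with DZNep, against 204, 209 and 208 CPM in DMSO. The first principal component, with 60.1% of the variance, set the DZNep libraries apart from the rest. The 8 melanocyte markers, none of them at 0 in any group, summed to 21494 to 21869 CPM with GSK126 and 22206 to 22583 with DZNep, against 25407 to 25741 in DMSO, and to 24195 to 25661 with siEzh2, against 19019 to 20116 in scr. The 8 fibroblast markers summed to 398 to 416 CPM with DZNep, against 190 to 229 CPM in DMSO, with Col3a1 at 0 with DZNep and Dcn at 0 in DMSO. The 8 blood and endothelial markers summed to at most 8.51 CPM, with 4 or 5 at 0 in each group. The part of these differences in the results was not tested.

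Set per kilobase of exon, the members with counts spanned more than 2 orders of magnitude in DMSO, from Mrpl23 to Mrpl34. The length used is that of all annotated exons of a gene together, so ranks on this scale depend on the annotation. It was 607 bases for Mrpl34 and 739 for Mrps21, against 8152 for Mrpl48. Without division by length Mrpl34 was at 34.1 CPM in DMSO, where the highest member was at 115 CPM. Mrpl34, a large-subunit protein of bacterial descent, stood at 56.3 ± 7.42 CPM per kb, Mrps21 of the small subunit at 47.04 ± 7.002 and Mrpl12, the stalk protein that contacts translation factors, at 40.9 ± 14.6 (SD, n = 3 each). The 3 highest members were not separated from each other by more than their spread. The lowest above 0 were Mrpl23, whose bacterial counterpart lines the exit of the peptide tunnel, at 0.232 ± 0.0193 CPM per kb, and the mitochondria-specific Mrpl48 at 1.91 ± 0.0814 CPM per kb. These were apart from each other by many times their SDs, but Mrps10, at 1.94 ± 0.0633 CPM per kb, was not separated from Mrpl48 by more than their spread.

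The median of the 77 members with counts was 9.43 CPM per kb with GSK126, 11.3 with DZNep and 10.3 in DMSO, and 9.80 with siEzh2 and 11.1 in scr. In DMSO the medians were 9.97 CPM per kb for the 16 small-subunit proteins with a bacterial counterpart and 6.09 for the 10 without. They were 9.997 for the 30 large-subunit proteins with a bacterial counterpart and 16.6 for those without, of which 20 of 21 had counts. In CPM, without division by exon length, the order of the small-subunit classes was reversed, with medians of 21.8 and 24.6. Those of the large-subunit classes were 24.6 and 30.7 CPM, the member at 0 included. Mrpl53, the other one, had 0 counts in all 15 libraries and was not tested. In the annotation 88% of its exon bases are also exon of Gm42688 on the same strand, which had 7827 counts in all, so its level is uncertain and the value of 0 is not evidence of absence.

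**Figure D1:**
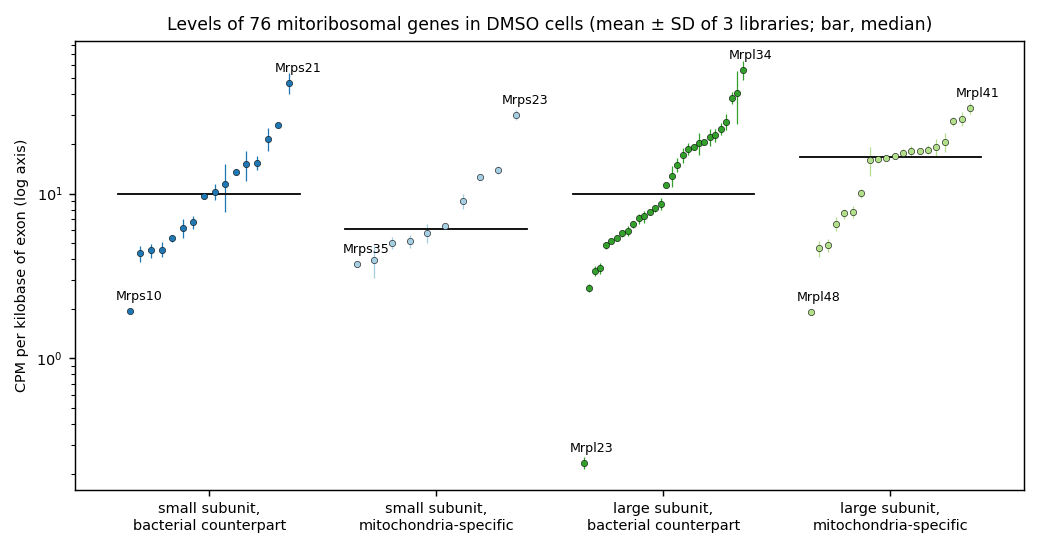
Level of 76 mitoribosomal protein genes in DMSO as CPM per kilobase of exon (mean of 3 libraries, log axis), in 4 classes by subunit and by whether the protein has a bacterial counterpart; the bar is the class median. Mrpl34 stands highest at 56.3 and Mrpl23 lowest at 0.232 CPM per kb, while the 4 medians lie between 6.09 and 16.6 CPM per kb.

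With DZNep more transcripts of mitochondrial ribosomal proteins were higher than lower. In DZNep against DMSO, 36 of the 77 tested members were higher and 14 were lower at an adjusted p under 0.05. Over all 15152 genes the test called 31.2% higher and 31% lower, so the share of members called either way was close to the share of all genes called either way, 62.3%, with more of the members' calls on the higher side. The members' median log2 fold change was 0.17, against 0.00 over all genes tested, and their changes ran from −0.68 to 0.95. In 35 members all DZNep libraries lay above all DMSO libraries, and in 13 all lay below, while over all genes 31.4% lay above and 31.6% below. At least 1.5-fold changes were fewer, with 8 members higher and 2 lower, against 25.8% of all genes called with at least that fold in either direction.

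**Figure D2:**
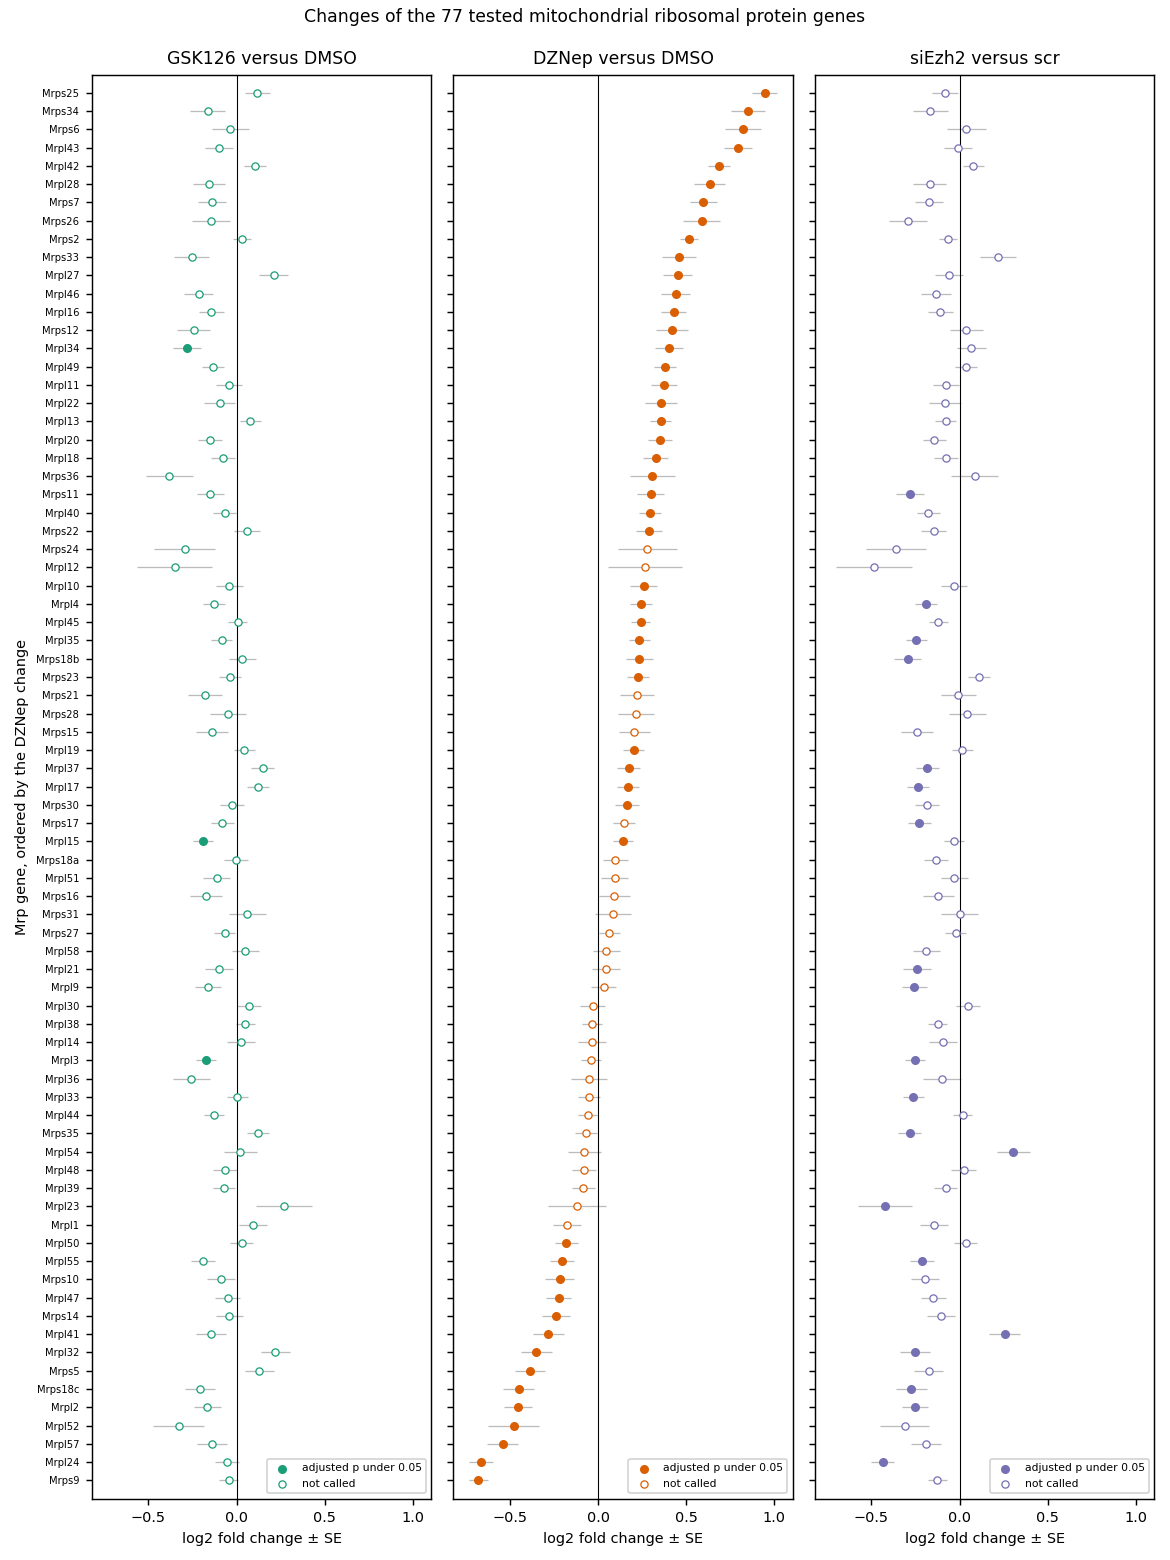
Log2 fold change ± SE of the 77 tested members in 3 panels, for GSK126 against DMSO, DZNep against DMSO and siEzh2 against scr, each from the same 15-library test; filled points have an adjusted p under 0.05. With DZNep the changes run from −0.68 to 0.95 and 50 points are filled, with siEzh2 they run from −0.48 to 0.30 and 20 are filled, and with GSK126 from −0.38 to 0.27 and 3 are filled.

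The small subunit held the largest changes with DZNep in both directions. Of its 10 mitochondria-specific proteins 7 were higher, with a median log2 fold change of 0.26 over the 10, and the other 3 passed in neither direction. Of its 16 proteins with a bacterial counterpart 5 were higher and 5 lower, with a median of 0.21. Across the whole small subunit 12 of 26 were higher and 5 lower, and across the large subunit 23 of 50 were higher and 9 lower, with medians of 0.22 and 0.10. Over all genes 31.2% were higher and 31% lower, and the 16 small-subunit proteins with a bacterial counterpart were close to this in each direction. The shares called higher were alike in the small and large subunits, at 46.2% and 46%. These classes are described by their counts, and no test between them was made.

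Mrps25, a mitochondria-specific small-subunit protein (ENSMUSG00000014551, chr6:92169525-92184033, minus strand), had the largest increase (gene coordinates here and below are GENCODE M21 on GRCm38). Members are named in each main comparison from those called whose treated and control libraries do not overlap, so in them that separation follows from the choice and supports nothing. Its level was 179.9, 158 and 142 CPM with DZNep, against 81.7, 86.2 and 80.9 CPM in DMSO. That was 1.93-fold higher (log2 fold change 0.95 ± 0.07, adjusted p = 8.85e-10). In the annotation 69.8% of its exon bases are also exon of Nr2c2 on the opposite strand, and Nr2c2, a nuclear receptor gene, was lower with DZNep (−0.68 ± 0.06, adjusted p = 3.39e-09). Mrps34 (ENSMUSG00000038880, chr17:24895116-24897502, plus strand), mutated in a form of Leigh syndrome in humans, had 20.6, 23.9 and 20.5 CPM with DZNep, against 10.4, 12 and 13.5 CPM in DMSO. The level was 1.8-fold higher (log2 fold change 0.85 ± 0.09, adjusted p = 1.72e-07). Its exons overlap Mapk8ip3 on the opposite strand over 63.4% of their bases and Nme3 on the same strand over 37%, and Mapk8ip3 was higher too (0.38 ± 0.09, adjusted p = 0.00184), so how its reads were assigned is uncertain. Mrps26, another mitochondria-specific protein (ENSMUSG00000037740, chr2:130563742-130568695, plus strand), had 24.3, 26.4 and 27.5 CPM with DZNep, against 15.4, 14.7 and 21.5 CPM in DMSO (log2 fold change 0.59 ± 0.10, adjusted p = 9.4e-05). DMSO replicate 3 came closest to the DZNep libraries.

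Among small-subunit proteins of bacterial descent, Mrps6 (ENSMUSG00000039680, chr16:92058270-92112227, plus strand), a protein of the platform, had 40.9, 41.1 and 41.1 CPM with DZNep, against 18.7, 22.2 and 28.3 CPM in DMSO. The DZNep libraries were nearly equal, and the level was 1.77-fold higher (log2 fold change 0.82 ± 0.10, adjusted p = 2.74e-06). On the same strand its exons overlap those of Gm49711 over 19.9% and of Slc5a3 over 10.4% of their bases. Mrps7 (ENSMUSG00000046756, chr11:115603925-115608036, plus strand), whose bacterial counterpart starts assembly of the head of the small subunit, had 28.8, 33.97 and 33.9 CPM with DZNep, against 19.9, 19.9 and 24.1 CPM in DMSO (log2 fold change 0.60 ± 0.08, adjusted p = 1.16e-06). The neighbouring gene Mif4gd, which overlaps 5.74% of the exon bases of Mrps7 on the opposite strand, was also higher (0.83 ± 0.09, adjusted p = 1.6e-07), while Gga3, which overlaps 6.13% on that strand, did not pass (−0.12 ± 0.07, adjusted p = 0.111).

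The largest decrease of any member was also in the small subunit. Mrps9 (ENSMUSG00000060679, chr1:42851233-42905683, plus strand), whose bacterial counterpart reaches from the head towards the peptidyl-tRNA site, had 33.1, 36.6 and 34.8 CPM with DZNep, against 57.7, 53.8 and 55.9 CPM in DMSO. It was 1.6-fold lower (log2 fold change −0.68 ± 0.05, adjusted p = 1.54e-09), and no exon of another gene overlaps it. Mrps18c (ENSMUSG00000016833, chr5:100798627-100804471, plus strand), of the same family as Mrps18a and Mrps18b, had 11.1, 10.9 and 10 CPM with DZNep, against 14.8, 13.9 and 14.9 CPM in DMSO (log2 fold change −0.45 ± 0.09, adjusted p = 0.000159). Mrps5 (ENSMUSG00000027374, chr2:127587222-127606829, plus strand), whose bacterial counterpart helps to keep translation accurate, had 38.2, 31.7 and 31.4 CPM with DZNep, against 46.8, 45.8 and 39.7 CPM in DMSO (log2 fold change −0.39 ± 0.08, adjusted p = 0.00048). For Mrps5 the highest DZNep and the lowest DMSO library were close.

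In the large subunit the largest increases, of Mrpl43 and Mrpl42, were in mitochondria-specific proteins, but as a class these were not ahead. Of the 20 tested 8 were higher and 4 lower, with a median of 0.07. Of the 30 with a bacterial counterpart 15 were higher and 5 lower, with a median of 0.16, where 31.2% of all genes were higher and 31% lower. Mrpl43 (ENSMUSG00000025208, chr19:45004829-45006442, minus strand) had 51.02, 55.7 and 57.3 CPM with DZNep, against 27.4, 31.4 and 35.7 CPM in DMSO, a 1.73-fold higher level (log2 fold change 0.79 ± 0.08, adjusted p = 3.21e-08). Its exons overlap those of Twnk, the gene of the mitochondrial DNA helicase, on the opposite strand over 33.4% of their bases, and Twnk was lower (−0.20 ± 0.07, adjusted p = 0.0129). Mrpl42 (ENSMUSG00000062981, chr10:95480805-95501940, minus strand) had 108, 115 and 98.8 CPM with DZNep, against 61.1, 68.98 and 70.1 CPM in DMSO, 1.61-fold higher (log2 fold change 0.68 ± 0.06, adjusted p = 7.42e-09). Mrpl28 (ENSMUSG00000024181, chr17:26123500-26126613, plus strand), of bacterial descent, had 26.1, 29.3 and 27.6 CPM with DZNep, against 15.5, 17.4 and 20.4 CPM in DMSO (log2 fold change 0.63 ± 0.09, adjusted p = 3.35e-06). Mrpl42 and Mrpl28 overlap no exon of another gene.

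The decreases of the large subunit mixed both kinds of protein. Mrpl24 (ENSMUSG00000019710, chr3:87919506-87923672, plus strand), whose bacterial counterpart starts assembly of the large subunit, had 35.5, 32.97 and 37.2 CPM with DZNep, against 54.99, 51.4 and 60.8 CPM in DMSO, 1.58-fold lower (log2 fold change −0.66 ± 0.07, adjusted p = 5.07e-08). Exons of Rrnad1 cover 26.3% of its exon bases on the opposite strand, and Rrnad1 did not pass with DZNep (0.18 ± 0.08, adjusted p = 0.0561). Mrpl2 (ENSMUSG00000002767, chr17:46646229-46650139, plus strand), whose counterpart lies close to the peptidyl transferase centre, had 22.2, 23.96 and 23.7 CPM with DZNep, against 30.1, 29.6 and 35.99 CPM in DMSO (log2 fold change −0.45 ± 0.08, adjusted p = 3.58e-05). Mrpl32 (ENSMUSG00000015672, chr13:14608184-14613165, minus strand), which the m-AAA protease of the inner membrane matures after import, had 20.5, 20.6 and 15.96 CPM with DZNep, against 24.7, 25.1 and 22.9 CPM in DMSO (log2 fold change −0.35 ± 0.09, adjusted p = 0.00164).

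The other decreases of the large subunit named here were in mitochondria-specific proteins. Mrpl57 (ENSMUSG00000021967, chr14:57826234-57829296, plus strand) had 9.18, 10.4 and 8.87 CPM with DZNep, against 12.6, 13.1 and 15.6 CPM in DMSO (log2 fold change −0.54 ± 0.09, adjusted p = 2.02e-05). Mrpl52 (ENSMUSG00000010406, chr14:54426909-54429756, plus strand) had 11.6, 13.6 and 13.1 CPM with DZNep, against 15.9, 15.4 and 21.9 CPM in DMSO (log2 fold change −0.48 ± 0.14, adjusted p = 0.00925). For Mrpl52 the DMSO libraries were far apart, with replicate 3 the highest, and the call was lost without it (adjusted p = 0.0562). DMSO replicate 3 was also the deepest library, and Mrpl12 and Mrps21 gave the opposite case. Mrpl12 had 67.2, 74.8 and 85.1 CPM with DZNep, against 48.2, 51.3 and 88.5 CPM in DMSO, and did not pass (log2 fold change 0.27 ± 0.21, adjusted p = 0.295), but passed without that library (0.61, adjusted p = 0.00181). Mrps21 had 39.2, 44.1 and 38.4 CPM with DZNep, against 32.6, 31.1 and 40.7 CPM in DMSO (log2 fold change 0.22 ± 0.10, adjusted p = 0.0597), and passed without that library as well (0.35, adjusted p = 0.00125). Without DMSO replicate 3 the test called 41 members higher and 10 lower, of which 35 and 10 were also called with all libraries. That fit called 4815 of all 15381 genes higher and 4651 lower.

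**Figure D3:**
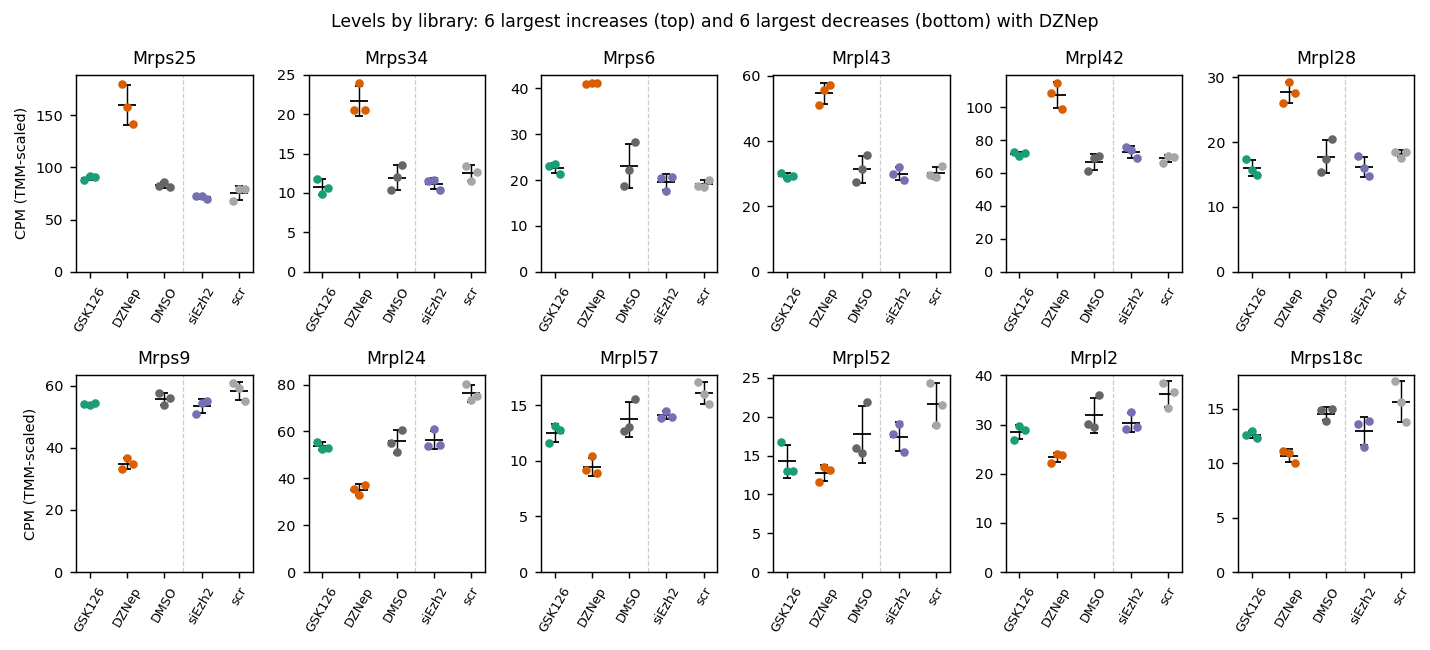
CPM of the 6 members with the largest increase and the 6 with the largest decrease with DZNep, by library in all 5 groups; points are libraries and bars the mean ± SD of 3. Mrps25 reaches 142 to 179.9 CPM with DZNep, against 80.9 to 86.2 CPM in DMSO, and Mrps9 stands at 33.1 to 36.6 CPM with DZNep, against 53.8 to 57.7 CPM in DMSO, while the GSK126 libraries lie at 53.9 to 54.4 CPM for Mrps9.

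Promoter sequence was set beside these changes because the members with the largest changes include genes with and without motifs known from promoters of mitochondrial genes. RefSeq promoter windows (GRCm38.p6), which run from 250 bases before to 50 after a gene's start, were found for 69 of the 78 members. Motifs were searched on both strands: CCGGAAG, bound by ETS factors such as GABPA; CGCATGCG, bound by NRF1; AAGATGGCG, bound by YY1; and the E-box CACGTG. In the windows below, printed 5′ to 3′ on the strand of the gene, capitals mark a match, and Mrps25 and Mrps9 are shown as the largest increase and decrease, Mrpl43, Mrpl42, Mrpl57 and Mrpl52 as further large changes with a match, and Mrps11 for the start it shares with Mrpl46.
Mrps25 (chr6:92183974-92184273, minus strand): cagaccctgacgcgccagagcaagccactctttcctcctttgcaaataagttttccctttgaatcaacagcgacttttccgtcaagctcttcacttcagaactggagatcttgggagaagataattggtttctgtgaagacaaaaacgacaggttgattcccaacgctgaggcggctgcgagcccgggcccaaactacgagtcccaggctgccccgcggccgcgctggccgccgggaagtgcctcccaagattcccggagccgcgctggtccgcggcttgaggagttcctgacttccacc
Mrpl43 (chr19:45006393-45006692, minus strand): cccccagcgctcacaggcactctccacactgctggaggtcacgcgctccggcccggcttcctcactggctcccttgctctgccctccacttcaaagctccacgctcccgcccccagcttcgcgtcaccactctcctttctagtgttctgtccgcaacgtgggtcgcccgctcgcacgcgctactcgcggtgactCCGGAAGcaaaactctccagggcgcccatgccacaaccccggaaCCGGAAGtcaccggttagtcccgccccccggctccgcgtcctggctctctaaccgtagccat
Mrpl42 (chr10:95501900-95502199, minus strand): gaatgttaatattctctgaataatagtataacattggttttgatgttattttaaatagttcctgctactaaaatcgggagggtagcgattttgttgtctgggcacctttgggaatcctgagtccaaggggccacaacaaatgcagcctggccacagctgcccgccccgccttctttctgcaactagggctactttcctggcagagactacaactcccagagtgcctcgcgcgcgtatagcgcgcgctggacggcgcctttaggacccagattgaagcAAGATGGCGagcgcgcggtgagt
Mrps9 (chr1:42850983-42851282, plus strand): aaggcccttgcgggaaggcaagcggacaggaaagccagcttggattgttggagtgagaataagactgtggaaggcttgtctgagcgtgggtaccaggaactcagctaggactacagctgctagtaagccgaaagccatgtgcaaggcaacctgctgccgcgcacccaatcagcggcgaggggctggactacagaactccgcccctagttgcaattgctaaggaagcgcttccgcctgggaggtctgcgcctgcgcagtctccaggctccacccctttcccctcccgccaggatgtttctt
Mrpl57 (chr14:57825989-57826288, plus strand): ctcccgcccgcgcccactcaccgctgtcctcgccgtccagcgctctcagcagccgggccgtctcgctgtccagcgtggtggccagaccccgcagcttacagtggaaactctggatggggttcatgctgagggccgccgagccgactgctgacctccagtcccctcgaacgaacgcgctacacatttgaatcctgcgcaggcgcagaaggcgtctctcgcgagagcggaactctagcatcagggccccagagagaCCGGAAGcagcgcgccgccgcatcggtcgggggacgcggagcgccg
Mrpl52 (chr14:54426659-54426958, plus strand): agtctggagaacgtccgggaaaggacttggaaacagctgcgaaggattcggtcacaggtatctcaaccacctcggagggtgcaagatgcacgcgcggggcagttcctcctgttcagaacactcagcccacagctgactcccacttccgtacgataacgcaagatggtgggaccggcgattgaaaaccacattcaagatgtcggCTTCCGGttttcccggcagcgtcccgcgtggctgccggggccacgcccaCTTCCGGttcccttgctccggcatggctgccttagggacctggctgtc
Mrps11 (chr7:78782881-78783180, plus strand): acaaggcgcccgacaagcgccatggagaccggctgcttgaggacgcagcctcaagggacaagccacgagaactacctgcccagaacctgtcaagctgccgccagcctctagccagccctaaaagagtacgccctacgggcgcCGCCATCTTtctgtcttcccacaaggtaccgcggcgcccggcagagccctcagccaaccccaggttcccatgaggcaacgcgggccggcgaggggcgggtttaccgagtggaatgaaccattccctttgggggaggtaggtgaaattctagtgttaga
The window of Mrpl43 holds the ETS letters at 2 places on the strand of the gene, that of Mrpl52 holds them at 2 places on the other strand, where they read CTTCCGG, and that of Mrpl57 holds them once. The YY1 letters stand in the window of Mrpl42 and, on the other strand, in that of Mrps11, and the windows of Mrps25 and Mrps9 hold none of the 4 motifs. Mrps6 and Mrpl24, with larger changes than Mrpl43 and Mrpl57, have windows without any of these motifs, as does Mrpl46. Those windows are not printed, so the printed set holds more matches than the largest changes alone would give.

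The ETS letters were in the windows of 26 of the 69 members (37.7%), against 19.9% of the 10395 tested genes and 9.93% of all 27025 genes with a window. YY1 letters were in 8 members (11.6%), against 3.52% of tested genes and 1.64% of all genes. NRF1 letters were in 7 members (10.1%), against 4.32% and 2.07%, and the E-box was in 5 (7.25%), against 11.7% and 8.09%. Of the members with a window, the ETS letters were in 12 of the 31 that were higher with DZNep, in 3 of the 14 that were lower and in 10 of the 23 tested members that did not pass. A match describes the letters in a window and is not evidence of binding, and these shares were not tested.

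Mrps11 and Mrpl46 start head to head and share 173 exon bases on opposite strands, 7.97% of those of Mrps11 and 12.2% of those of Mrpl46. Mrps11, of the small-subunit platform, had 13.7, 14.6 and 14.7 CPM with DZNep, against 11.5, 11.1 and 12.3 CPM in DMSO (log2 fold change 0.30 ± 0.08, adjusted p = 0.00197). Mrpl46, a mitochondria-specific large-subunit protein, had 12.6, 12.9 and 12.4 CPM with DZNep, against 8.68, 8.83 and 10.3 CPM in DMSO (log2 fold change 0.44 ± 0.08, adjusted p = 9.02e-05). This pair was chosen after its values were seen.

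Summed over all members, the level was 2696, 2799 and 2663 CPM with DZNep, against 2253, 2335 and 2538 CPM in DMSO, without overlap. The small subunit summed to 891, 904 and 853 CPM with DZNep, against 691, 706 and 752 CPM in DMSO. Its means were 883 and 716 CPM, of which Mrps25 alone gave 159.8 CPM with DZNep and 82.9 CPM in DMSO. Much of the difference therefore came from 1 gene, and 69.8% of its exon bases are also exon of Nr2c2. The large subunit summed to 1791, 1879 and 1793 CPM with DZNep, against 1552, 1617 and 1770.4 CPM in DMSO, and here the separation rested on the scaling. On library totals DMSO replicate 3 was above DZNep replicate 1, at 1750 CPM in the DZNep library and 1781 CPM in the DMSO library, and without the mitochondrially encoded counts these were 1910 and 1943 CPM. The sums over all members and over the small subunit did not overlap on either of those scales. The genes of the cytosolic ribosome went the other way, with sums of 7084, 7675 and 7129 CPM with DZNep, against 8585, 8872 and 10369 CPM in DMSO. Of 80 tested cytosolic ribosomal protein genes 7 were higher and 38 lower with DZNep, where 31.2% of all genes were higher and 31% lower, and their median log2 fold change was −0.28. CPM are shares of a library, and in bulk samples fewer cells of a type and less RNA per cell cannot be told apart.

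**Figure D4:**
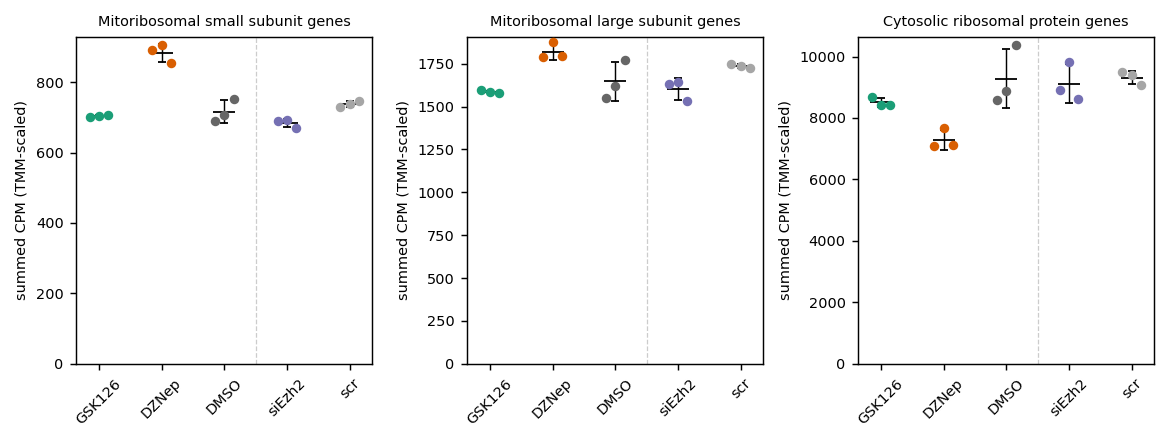
Summed CPM per library of the small-subunit, large-subunit and cytosolic ribosomal protein genes in the 5 groups, with points for libraries and bars for the mean ± SD of 3. On this TMM scale both mitoribosomal sums are highest in the 3 DZNep libraries, at 853 to 904 CPM for the small and 1791 to 1879 CPM for the large subunit; for the large subunit DZNep replicate 1 is below scr replicate 1 and DMSO replicate 3 on library totals (1750 against 1843 and 1781 CPM) and without mitochondrially encoded counts (1910 against 1983 and 1943 CPM). In contrast, the cytosolic sums are lowest with DZNep, at 7084 to 7675 CPM.

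With siEzh2 the changes were smaller and mostly downward. Against scr, 2 of 77 members were higher and 18 lower, where the test called 13.2% of all genes higher and 12.9% lower. The median log2 fold change of the members was −0.13, against −0.01 over all genes, and the range was −0.48 to 0.30. In 35 members every siEzh2 library lay below every scr library and in 3 every one lay above, while over all genes 21.6% lay below and 20.2% above. Of the 18 lower members 12 were large-subunit proteins with a bacterial counterpart, out of 30 tested, and 5 belonged to the small subunit. The count of lower members was 8 without scr replicate 1 and 9 without siEzh2 replicate 3, where 1438 of 15301 and 1441 of 15368 genes were lower. No member was called higher without siEzh2 replicate 1, siEzh2 replicate 2 or scr replicate 3, where 1614 of 15393, 1752 of 15398 and 1798 of 15379 genes were.

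Mrpl24, also lower with DZNep, had the largest called decrease, at 53.8, 60.99 and 54.3 CPM with siEzh2, against 80.4, 73.2 and 75.3 CPM in scr. It was 1.35-fold lower (log2 fold change −0.44 ± 0.07, adjusted p = 4.84e-05). Mrpl23 (ENSMUSG00000037772, chr7:142532686-142540747, plus strand), of the tunnel exit, had 1.38, 1.29 and 1.39 CPM with siEzh2, against 2.08, 1.504 and 1.85 CPM in scr (log2 fold change −0.42 ± 0.15, adjusted p = 0.045). Its call was lost in 9 of 14 other settings, with an adjusted p of up to 0.252 without scr replicate 1, and the level is low enough that few counts carry it.

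Mrps35, a mitochondria-specific small-subunit protein (ENSMUSG00000040112, chr6:147042764-147073991, plus strand), had 30.5, 32.4 and 29.3 CPM with siEzh2, against 35.9, 39.8 and 36.5 CPM in scr (log2 fold change −0.28 ± 0.06, adjusted p = 0.0019). Mrps11 had 9.42, 9.88 and 10.3 CPM with siEzh2, against 12.6, 12.01 and 11.3 CPM in scr (log2 fold change −0.28 ± 0.08, adjusted p = 0.0115), and lost its call without siEzh2 replicate 1 (adjusted p = 0.0521) or scr replicate 1 (0.0817). Of the large subunit, Mrpl33 (ENSMUSG00000106918, chr5:31596935-31664384, plus strand) had 21.6, 21.99 and 21.3 CPM with siEzh2, against 27.3, 26.2 and 24.2 CPM in scr (log2 fold change −0.26 ± 0.06, adjusted p = 0.00289). Mrpl9 (ENSMUSG00000028140, chr3:94443318-94451130, plus strand) had 21.4, 22.8 and 21.4 CPM with siEzh2, against 27.8, 26.04 and 24.5 CPM in scr (log2 fold change −0.26 ± 0.07, adjusted p = 0.0114), and lost its call without scr replicate 1 (0.0963) or siEzh2 replicate 3 (0.0593). Both proteins descend from bacterial ones. Mrpl32 had 25.9, 27.6 and 23.4 CPM with siEzh2, against 29.6, 31.8 and 30.2 CPM in scr (log2 fold change −0.25 ± 0.08, adjusted p = 0.0317), and passed in 1 of the 6 fits that left out a siEzh2 or scr library.

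The members higher with siEzh2 were both mitochondria-specific large-subunit proteins. Mrpl54 (ENSMUSG00000034932, chr10:81264713-81266934, minus strand) had 19.9, 20.5 and 17.97 CPM with siEzh2, against 15.99, 16.4 and 14.9 CPM in scr (log2 fold change 0.30 ± 0.09, adjusted p = 0.0196). Mrpl41 (ENSMUSG00000036850, chr2:24974117-24975098, minus strand) had 32.1, 31.2 and 27.5 CPM with siEzh2, against 27.04, 25.1 and 23.8 CPM in scr (log2 fold change 0.26 ± 0.09, adjusted p = 0.0341). The groups of both genes were close. Leaving out 1 of siEzh2 replicates 1 and 2 or scr replicate 3 ended the call of Mrpl54, with an adjusted p of 0.0621, 0.0827 and 0.0708. Leaving out 1 of siEzh2 replicates 1 and 2 or scr replicates 2 and 3 ended that of Mrpl41, with an adjusted p of 0.131, 0.106, 0.0898 and 0.115.

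Members differed between the controls as well. In scr against DMSO 12 members were higher, where 12.2% of all genes were called higher and 13.6% lower. edgeR called none lower, with 2 lower at an unadjusted p under 0.05 and 1 called by DESeq2, and the median was 0.09. Of all 15152 genes, 2891 were lower at that unadjusted p and 2076 were called lower by DESeq2. The count of higher members was 21 without DMSO replicate 3, and 7 without scr replicate 1 or scr replicate 3. Genes called higher in these fits were 1800 of 15381, 1361 of 15301 and 1374 of 15379. Among the 12, Mrpl23 (0.67 ± 0.15, adjusted p = 0.00219), Mrpl24 (0.45 ± 0.07, adjusted p = 3.41e-05) and Mrpl32 (0.34 ± 0.08, adjusted p = 0.00551) had the largest differences. Set against DMSO in place of scr, a comparison chosen after the data were seen, siEzh2 gave 2 members higher and 2 lower, where 6.41% of all genes were higher and 7.76% lower. Of these, 1 higher member, Mrpl54 (0.29 ± 0.09, adjusted p = 0.0396), and both lower ones, Mrpl33 (−0.21 ± 0.06, adjusted p = 0.0275) and Mrps11 (−0.24 ± 0.08, adjusted p = 0.0443), were also called against scr. Mrpl24 was at 0.02 ± 0.07, adjusted p = 0.914, Mrpl32 at 0.08 ± 0.09, adjusted p = 0.569 and Mrps35 at −0.07 ± 0.06, adjusted p = 0.516 against DMSO, without a call. The siRNA arm shares scr between the 2 comparisons it enters, and the part of transfection in the members' levels was not tested.

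With GSK126 few members moved. Against DMSO edgeR called 3 of 77 members lower and none higher, where it called 5.54% of all genes lower and 7.15% higher. At an unadjusted p under 0.05 there were 3 higher and 16 lower, where 2090 of all 15152 genes were higher and 2077 lower. DESeq2 called none higher and 4 lower, against 1154 and 837 of the 15152 genes. The median log2 fold change was −0.07, against −0.01 over all genes, and in 10 members all GSK126 libraries lay below DMSO and in 6 all lay above, while over all genes 15.1% lay below and 15.6% above. The 3 lower members were all large-subunit proteins with a bacterial counterpart.

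Mrpl34 (ENSMUSG00000034880, chr8:71464959-71465747, plus strand) had 27.7, 29 and 27.9 CPM with GSK126, against 29.8, 33.9 and 38.8 CPM in DMSO (log2 fold change −0.28 ± 0.08, adjusted p = 0.0273). Mrpl15 (ENSMUSG00000033845, chr1:4773206-4785739, minus strand), whose counterpart acts in assembly of the large subunit, had 37.2, 37.3 and 41.02 CPM with GSK126, against 42.3, 44.4 and 44.97 CPM in DMSO (log2 fold change −0.19 ± 0.06, adjusted p = 0.0335). Mrpl3 (ENSMUSG00000032563, chr9:105053239-105079888, plus strand), whose counterpart lies close to the peptidyl transferase centre, had 35.9, 32.9 and 33.02 CPM with GSK126, against 37.8, 36.5 and 40.5 CPM in DMSO (log2 fold change −0.17 ± 0.06, adjusted p = 0.0494). In each of these genes the gap from the highest GSK126 to the lowest DMSO library was less than the range of the DMSO libraries. The count of lower members was 1 without GSK126 replicate 1, GSK126 replicate 3 or DMSO replicate 2, 0 without GSK126 replicate 2 or DMSO replicate 3, and 5 without DMSO replicate 1. In the same order, these fits called 422, 469, 784, 452, 459 and 1241 of all genes lower, out of 15370 to 15397. Without DMSO replicate 3 the adjusted p was 0.167 for Mrpl34, 0.098 for Mrpl15 and 0.201 for Mrpl3. By its library number GSK126 replicate 1 stands nearer to the siRNA libraries than to the other compound libraries.

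The compounds, given at the same 2 µM, differed in the members. In DZNep against GSK126 44 members were higher and 13 lower, where 32.9% of all genes were called higher and 31.7% lower, and the median was 0.21. Mrps34 (1.01 ± 0.10, adjusted p = 1.7e-08), Mrpl43 (0.89 ± 0.08, adjusted p = 5.77e-09) and Mrps6 (0.86 ± 0.11, adjusted p = 1.69e-06) had the largest differences upward. Mrps9 (−0.63 ± 0.05, adjusted p = 3.74e-09), Mrpl24 (−0.61 ± 0.07, adjusted p = 1.58e-07) and Mrpl32 (−0.57 ± 0.09, adjusted p = 9.51e-06) had the largest downward. For Mrps34 the DZNep level was 2.02-fold that with GSK126. This comparison uses no DMSO library for its difference, whereas the separate comparisons of each compound share DMSO.

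The difference between effects, DZNep against DMSO minus siEzh2 against scr, was called higher in 39 members and lower in 4, where 25.3% of all genes were higher and 25.8% lower. The median of this difference was 0.24. It was largest for Mrps25 (1.03 ± 0.10, adjusted p = 9.61e-08), Mrps34 (1.02 ± 0.14, adjusted p = 4.13e-06) and Mrps26 (0.88 ± 0.15, adjusted p = 9.45e-05), and lowest for Mrps9 (−0.55 ± 0.08, adjusted p = 5.34e-06), Mrpl41 (−0.54 ± 0.12, adjusted p = 0.00111) and Mrpl54 (−0.38 ± 0.13, adjusted p = 0.0209). The siEzh2 effect minus the GSK126 effect was called higher in 3 members and lower in 8, where 10.1% of all genes were higher and 10.5% lower. The 3 were Mrps33 (0.47 ± 0.14, adjusted p = 0.0224), Mrpl41 (0.40 ± 0.12, adjusted p = 0.0236) and Mrpl34 (0.35 ± 0.11, adjusted p = 0.0364). Among the 8, the difference was lowest for Mrpl23 (−0.69 ± 0.22, adjusted p = 0.0294), Mrpl32 (−0.47 ± 0.12, adjusted p = 0.00726) and Mrps35 (−0.40 ± 0.09, adjusted p = 0.0023). Of that difference, the count higher was 5 without DMSO replicate 1, 1 without GSK126 replicate 1, GSK126 replicate 3 or scr replicate 3, and 0 without DMSO replicate 3, siEzh2 replicate 2 or scr replicate 2. In the same order, 1676, 1414, 1283, 1441, 1561, 1404 and 1276 of all genes were higher, out of 15375 to 15398. The count lower was 12 without DMSO replicate 3, 5 without GSK126 replicate 1 or DMSO replicate 2, and 4 without GSK126 replicate 3, where 1608, 1334, 1448 and 1299 of all genes were lower. Each of these differences between effects uses both scr and DMSO, so the difference between the controls enters it. Mrpl23 had mean levels of 1.35 CPM with siEzh2 and 1.37 CPM with GSK126, against 1.81 CPM in scr and 1.13 CPM in DMSO. How much the controls gave to these differences was not tested.

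Set side by side, the comparisons with DZNep and siEzh2, which share no library, put 12 of 77 members past the test in both. Over all genes 18.7% passed in both, and the members' share was not above this. Of the 12, Mrpl2, Mrpl24, Mrpl32, Mrpl55 and Mrps18c were lower in both (5.53% of all genes), Mrpl17, Mrpl35, Mrpl37, Mrpl4, Mrps11 and Mrps18b were higher with DZNep and lower with siEzh2 (3.56% of all genes), and Mrpl41 was lower with DZNep and higher with siEzh2. A further 38 passed with DZNep alone, 8 with siEzh2 alone and 19 with neither. Across the 77 members the log2 fold changes of the 2 comparisons had a Pearson r of 0.24 and a Spearman rho of 0.28, and across all 15152 genes tested the values were 0.23 and 0.13. These describe genes measured in the same libraries, which are not independent of each other.

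**Figure D5:**
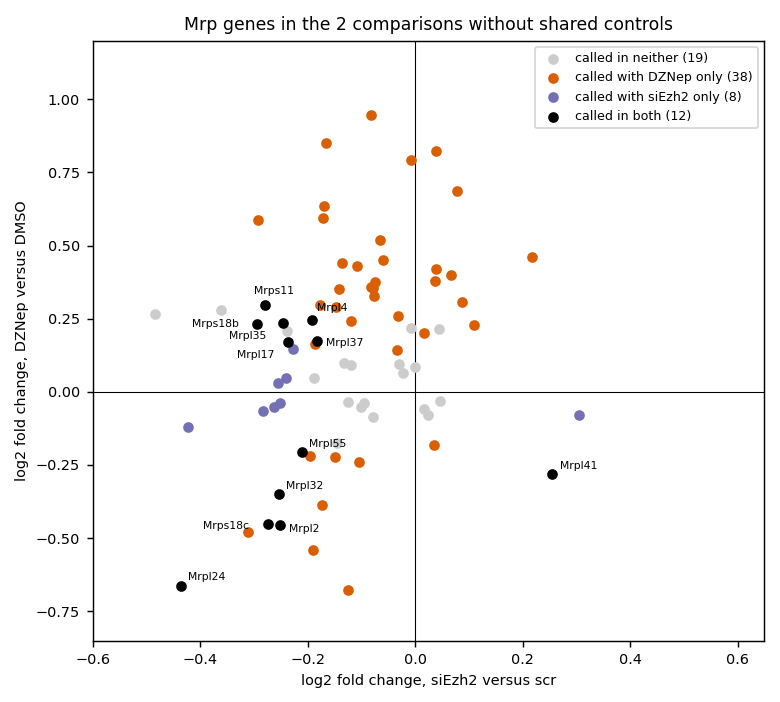
Log2 fold change of each of the 77 tested members with siEzh2 against scr (x axis) and with DZNep against DMSO (y axis), coloured by the test each passed; the 12 members past both are labelled. Points spread further along the DZNep axis, from −0.68 to 0.95, than along the siEzh2 axis, from −0.48 to 0.30, and 5 of the labelled members lie low on both.

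The Mrps18 family, 3 paralogs of a bacterial small-subunit protein, did not move as a unit. Mrps18c, which takes the bacterial place in the small subunit, was lower with DZNep, as given above, and had 13.6, 11.5 and 13.8 CPM with siEzh2, against 17.5, 15.6 and 13.8 CPM in scr (log2 fold change −0.27 ± 0.09, adjusted p = 0.0234). The ranges of siEzh2 and scr met, and the call was lost without siEzh2 replicate 2 (adjusted p = 0.142), scr replicate 1 (0.205) or scr replicate 2 (0.0566). Mrps18b (ENSMUSG00000024436, chr17:35910379-35916389, minus strand), at another place in the small subunit, had 13.9, 15.5 and 17.6 CPM with DZNep, against 13.5, 12.9 and 13.6 CPM in DMSO (log2 fold change 0.23 ± 0.08, adjusted p = 0.0122), and lost this call without DZNep replicate 3 (adjusted p = 0.132). It had 11.6, 12.8 and 13.2 CPM with siEzh2, against 15.6, 15.2 and 15.6 CPM in scr (log2 fold change −0.29 ± 0.08, adjusted p = 0.00765). The difference between its effects, DZNep minus siEzh2, was 0.53 ± 0.11, adjusted p = 0.000454. The controls enter this difference, and the mean level of Mrps18b was 15.4 CPM in scr, against 13.3 CPM in DMSO. Set against DMSO, a comparison chosen after the data were seen, siEzh2 gave no call for Mrps18b (−0.09 ± 0.08, adjusted p = 0.512) or Mrps18c (−0.17 ± 0.09, adjusted p = 0.21). Mrps18a (ENSMUSG00000023967, chr17:46110986-46128910, plus strand), which sits in the large subunit, had 29.2, 32.6 and 30.6 CPM with DZNep, against 26.1, 29.3 and 30.9 CPM in DMSO (log2 fold change 0.10 ± 0.07, adjusted p = 0.228), and 26.9, 30.9 and 28.9 CPM with siEzh2, against 31.3, 31.5 and 32.3 CPM in scr (log2 fold change −0.13 ± 0.07, adjusted p = 0.177). It passed in none of the 3 comparisons. Exons of Gm16279 cover 30.5% of the exon bases of Mrps18b on the opposite strand, and those of Gm43511 23.2% of Mrps18c on the same strand.

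A further 2 members carry small-subunit names but have their place elsewhere. Mrps30 (ENSMUSG00000021731, chr13:118378381-118387252, minus strand), a large-subunit protein, had 36.7, 36.2 and 36.4 CPM with DZNep, against 29.6, 32.5 and 35.4 CPM in DMSO (log2 fold change 0.16 ± 0.07, adjusted p = 0.046), without overlap. Its call was lost in 12 of 14 other settings, among them each fit without a DZNep library and those without DMSO replicates 1 and 2, with an adjusted p of up to 0.237. Mrps36 (ENSMUSG00000061474, chr13:100735955-100744659, minus strand) had 14.05, 15.8 and 16.4 CPM with DZNep and 7.91, 10.3 and 10.5 CPM with GSK126, against 10.1, 11.6 and 15.4 CPM in DMSO. Here DMSO replicate 3 lay within the DZNep range, the change with DZNep was 0.31 ± 0.13, adjusted p = 0.0483, and the call was lost in 8 of 14 other settings, up to an adjusted p of 0.204 without DMSO replicate 1. The change with GSK126 was −0.38 ± 0.13, adjusted p = 0.0738, which passed in 4 of 14 other settings, among them the fit without DMSO replicate 1 (adjusted p = 0.0107).

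The mitoribosome also has proteins under other names, and all 5 of those listed changed with DZNep, as 62.3% of all genes did. Gadd45gip1 (0.52 ± 0.08, adjusted p = 7.46e-06) of the large subunit, and Dap3 (0.27 ± 0.06, adjusted p = 0.0014), Aurkaip1 (0.28 ± 0.06, adjusted p = 0.000439) and Chchd1 (0.31 ± 0.12, adjusted p = 0.033) of the small subunit were higher, and Ptcd3 (−0.28 ± 0.06, adjusted p = 0.000234), also of the small subunit, was lower. With siEzh2 Ptcd3 (−0.26 ± 0.06, adjusted p = 0.00193), Dap3 (−0.22 ± 0.07, adjusted p = 0.0145) and Aurkaip1 (−0.16 ± 0.06, adjusted p = 0.0493) were lower, and the other 2 did not pass. With GSK126 their log2 fold changes lay between −0.21 and 0.01 and did not pass.

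Of 26 genes for mitoribosome assembly and rRNA modification 14 were higher and 7 lower with DZNep (against 31.2% and 31% of all genes), with a median of 0.24. The rRNA methyltransferase Nsun4 was at 15.4 ± 0.131 CPM with DZNep, against 10.1 ± 0.568 CPM in DMSO (0.62 ± 0.07, adjusted p = 4.07e-07), and the pseudouridine synthase Trub2 at 52.5 ± 2.94 CPM, against 37.5 ± 1.9 CPM (SD, n = 3 each; 0.48 ± 0.06, adjusted p = 3.67e-07). Mterf3 (−0.33 ± 0.06, adjusted p = 8.93e-05), which acts in assembly of the large subunit, and the GTPase Mtg1 (−0.50 ± 0.10, adjusted p = 0.00014) were lower. With siEzh2 2 of the 26 were higher, Nsun4 (0.34 ± 0.08, adjusted p = 0.00245) and the rRNA methyltransferase Mettl15 (0.26 ± 0.08, adjusted p = 0.0294), and 5 were lower, among them Trub2 (−0.28 ± 0.06, adjusted p = 0.00118) and the GTPase Gtpbp10 (−0.27 ± 0.06, adjusted p = 0.00159), where 13.2% of all genes were higher and 12.9% lower. With GSK126 3 were lower, Trub2 (−0.25 ± 0.06, adjusted p = 0.00711), Mterf3 (−0.21 ± 0.06, adjusted p = 0.0258) and Mpv17l2 (−0.36 ± 0.09, adjusted p = 0.0151), and none of the other 23 passed, where 5.54% of all genes were lower.

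The rRNAs that these proteins bind were lower with DZNep. mt-Rnr1 had 967, 918 and 759 CPM with DZNep, against 1158, 1179.5 and 1202 CPM in DMSO (−0.42 ± 0.15, adjusted p = 0.0291). mt-Rnr2 had 1368, 1215 and 1021 CPM with DZNep, against 1885, 1980.2 and 1776 CPM in DMSO (−0.65 ± 0.16, adjusted p = 0.00317). In both the DZNep libraries lay below DMSO, with DZNep replicate 3 the lowest. The call of mt-Rnr1 was lost without DZNep replicate 3 (adjusted p = 0.112) and without DMSO replicate 1 (0.0625), 2 (0.0644) or 3 (0.0869). Transcripts of mitochondrial DNA, a sign of RNA quality, summed to 60979 to 85988 CPM with DZNep, against 83045 to 94406 CPM in DMSO. How rRNA was removed or mRNA selected is not stated in the sources used here, so the rRNA counts may not follow the level of the rRNA.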

How the data were processed

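The authors deposited whole-number read counts per gene, without normalization, for 15 libraries. Per the submitters' processing notes, STAR, featureCounts and the build GRCm38 were used; for their versions, the annotation and the strand, nothing is given in the sources used here. Overlapping or antisense genes may therefore share reads, and many of the members overlap exons of another gene. The table also holds 5 pseudogenes named as copies of a member. How reads were divided between copies and members is not known, so low levels of members are uncertain. GENCODE M21 matched 45229 of the 46078 identifiers and gave symbols, coordinates and exon lengths. Genes kept by edgeR's count filter entered a quasi-likelihood test (edgeR 4.0.16, R 4.3.3, TMM scaling, robust estimation) in 1 fit of 15 libraries with a term per group, and p-values were adjusted by Benjamini-Hochberg over all 15152 genes, with a call under 0.05. Every adjusted p of a gene is from this fit unless another setting is named. Levels are CPM on TMM-scaled library sizes, and fold changes are log2 ± SE. The code of the fit was run on simulated counts with the same dispersion for every gene. That run cannot show how the fit does with replicates as uneven as these. No pair of libraries within a group agreed within counting noise (chi-square per degree of freedom 5.81 to 38.1), so none was treated as a second deposit of another; this does not show that they came from separate cultures.

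Members, lists and comparisons were chosen with earlier results of these data known. Named members were the 8 largest called changes each way whose 3 treated libraries lay outside the range of the 3 controls, in each main comparison, and the 3 largest each way in the others, with the Mrps18 paralogs, Mrps30, Mrps36, the 3 highest and 3 lowest per kilobase in DMSO, and from each companion list the 2 smallest p each way. Other members are named where a count of calls lists them, and Mrpl46, outside this rule, was chosen after its values were seen. Alternatives were other scalings (size factors, library totals, upper quartile), no count filter, at least 1 CPM in 3 libraries, the compared groups alone, a replicate block, DESeq2 1.42.0, and leaving out each library. The comparison of siEzh2 with DMSO was added after the data were seen. Protein sequences were not used here.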

Additional observations from a re-analysis of the deposited data

How the results depend on the processing

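Counts of called members for DZNep kept within 1.5 times of 36 higher and 14 lower under every setting, and no named member changed direction while called. Without a count filter GSK126 gave 1 member higher and 8 lower, and scr against DMSO gave 2 lower. Of all 25395 genes that setting called 1170 higher and 1225 lower with GSK126, and 2194 lower in scr against DMSO. With the other groups left out of the fit GSK126 gave 0 lower, with library totals siEzh2 gave 1 higher, and with DESeq2 scr gave 1 lower. The matching counts over all genes were 410 of 14495, 1648 of 15152 and 2076 of 15152. With DMSO in place of scr, added after the data were seen, siEzh2 gave 2 lower, where 7.76% of all genes were lower. The cause of these shifts was not tested.

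Leaving out 1 library gave 0 higher and 0 to 5 lower for GSK126, 31 to 41 higher and 10 to 14 lower for DZNep, and 0 to 2 higher and 8 to 14 lower for siEzh2. Of the 15301 to 15398 genes in these fits, 731 to 1249 were higher and 422 to 1241 lower for GSK126. For DZNep 4403 to 4815 were higher and 4336 to 4651 lower, and for siEzh2 1614 to 1812 and 1438 to 1598. Leaving out 1 library gave 37 to 41 higher and 9 to 12 lower for DZNep against GSK126, 30 to 44 higher and 3 to 6 lower for DZNep minus siEzh2, 0 to 5 higher and 4 to 12 lower for siEzh2 minus GSK126, and 7 to 21 higher and 0 to 3 lower for scr against DMSO. In the same order, 4596 to 4779, 3438 to 4043, 1276 to 1676 and 1361 to 1800 of all genes were higher. Those lower were 4510 to 4664, 3712 to 4043, 1297 to 1637 and 1666 to 2056. Such a fit has 14 libraries and 1 group of 2.

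Whether replicate numbers pair the libraries is not stated in the sources used here. Deviations of same-numbered libraries correlated between −0.02 and 0.09 in the compound arm and at −0.18, 0.07 and −0.15 in the siRNA arm. Such low values show no strong pairing by number but cannot exclude a pairing. With the number as a replicate block, DZNep gave 36 higher and 15 lower, siEzh2 2 and 18, GSK126 1 and 4, DZNep against GSK126 44 and 11, DZNep minus siEzh2 39 and 5, siEzh2 minus GSK126 4 and 8, and scr against DMSO 9 and 0. In the same order, of all 15152 genes 4727, 1917, 1044, 4950, 3788, 1465 and 872 were higher. Those lower were 4658, 1932, 835, 4792, 3841, 1552 and 1009. The block was set within each arm, so under it scr against DMSO, which crosses the arms, is the fitted difference at replicate 1 only. Its counts, and the adjusted p of 0.0943 for Mrpl32, which was not called there, are therefore no check of the group difference.

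For named members with DZNep, leaving out 1 library kept 137 values on their side of the threshold, ended 11 calls and added 2, and the other settings kept 185, ended 12 and added 3. With siEzh2 these counts were 83, 24 and 1 when leaving out 1 library, and 132, 6 and 6 under the other settings. With GSK126 they were 58, 13 and 1, and 84, 8 and 4.

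Depth limits the members with the fewest counts most, Mrpl23 among them. The 3 calls with GSK126 were lost in 5 to 10 of 14 other settings each, and how reads of overlapping genes were assigned was not tested.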

Other observations

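Other parts of the machinery for mitochondrial gene expression moved in both directions with DZNep. Of 17 mitochondrial aminoacyl-tRNA synthetases 7 were higher and 4 lower, where 31.2% of all genes were higher and 31% lower. Cars2, for cysteine, was at 12.8 ± 0.887 CPM with DZNep, against 5.96 ± 0.36 CPM in DMSO (SD, n = 3 each; log2 fold change 1.10 ± 0.10, adjusted p = 4.82e-09), and Tars2, for threonine, was also higher (0.56 ± 0.07, adjusted p = 1.09e-06). Rars2, for arginine (−0.65 ± 0.06, adjusted p = 2.49e-08), and Iars2, for isoleucine (−0.22 ± 0.05, adjusted p = 0.000334), were lower. Of 17 translation factors and related genes 4 were higher and 4 lower, in each direction a smaller share than of all genes. The higher ones included Tufm, the elongation factor that brings aminoacyl-tRNA (0.51 ± 0.07, adjusted p = 6.78e-06), and Gatb, of the enzyme that makes glutaminyl-tRNA (0.51 ± 0.07, adjusted p = 3.86e-06). The 4 lower ones included the initiation factors Mtif2 (−0.40 ± 0.05, adjusted p = 7.34e-07) and Mtif3, which was at 0.18 ± 0.0622 CPM with DZNep, against 0.927 ± 0.0621 CPM in DMSO (−2.39 ± 0.31, adjusted p = 1.45e-06), a level of few counts. With siEzh2 and with GSK126 the mRNA-binding protein Lrpprc was the 1 called factor of 17, lower in each (−0.20 ± 0.05, adjusted p = 0.00672 and −0.23 ± 0.05, adjusted p = 0.00511).

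Of 12 mitochondrial chaperones and proteases 6 were higher and 5 lower with DZNep, against 31.2% and 31% of all genes. The main matrix chaperone Hspa9 was at 441 ± 35.2 CPM with DZNep, against 845 ± 33.7 CPM in DMSO (−0.94 ± 0.06, adjusted p = 1.29e-10), and the protease Lonp1 was lower (−0.44 ± 0.06, adjusted p = 5.46e-06), while the chaperone Trap1 (0.54 ± 0.05, adjusted p = 3.98e-08) and the protease Htra2 (0.49 ± 0.06, adjusted p = 7.77e-07) were higher. The subunits of the m-AAA protease, which matures Mrpl32, moved apart, with Afg3l2 higher (0.42 ± 0.05, adjusted p = 1.1e-06) and Spg7 lower (−0.31 ± 0.07, adjusted p = 0.000919). With siEzh2 4 of the 12 were lower, where 12.9% of all genes were, among them Lonp1 (−0.36 ± 0.06, adjusted p = 0.000239) and the co-chaperonin Hspe1 (−0.24 ± 0.07, adjusted p = 0.0136), and with GSK126 Clpp, a matrix protease, was lower (−0.30 ± 0.09, adjusted p = 0.0408).

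Of 13 genes for mitochondrial transcription and its nuclear regulators, 4 were higher and 3 lower with DZNep, close to the shares of all genes (31.2% and 31%). Myc (0.63 ± 0.07, adjusted p = 3.26e-07) and the coactivator Pprc1 (0.43 ± 0.06, adjusted p = 7.62e-06) were higher, and Gabpb1 (−0.38 ± 0.06, adjusted p = 5.77e-06), the partner of the ETS factor GABPA, and the coactivator Ppargc1b (−0.32 ± 0.09, adjusted p = 0.0045) were lower. Ppargc1a, a coactivator of mitochondrial biogenesis, was at 195 ± 7.05 CPM with siEzh2, against 113 ± 4.9 CPM in scr (0.79 ± 0.07, adjusted p = 1.78e-07), and at 156 ± 5.81 CPM with GSK126, against 107 ± 13.4 CPM in DMSO (0.55 ± 0.07, adjusted p = 5.04e-05; SD, n = 3 each). With siEzh2 Tfb2m (0.19 ± 0.06, adjusted p = 0.0379), of the mitochondrial transcription machinery, was higher as well, and Tfam (−0.26 ± 0.05, adjusted p = 0.0007), which packs mitochondrial DNA, and Gabpb1 (−0.25 ± 0.05, adjusted p = 0.00189) were lower.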
